A study of Mus musculus with 7 samples.

Results

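Bone marrow of mice transplanted with marrow expressing EZH2-Mt was set against bone marrow of mice transplanted with mock marrow, on 5 of the 7 Affymetrix Mouse430_2 arrays of the series. The 2 EZH2-Mt arrays were 1 of GFP-negative and 1 of GFP-positive cells (GFP is green fluorescent protein), sorted from recipient marrow that the labels call MDS-like. MDS usually stands for myelodysplastic syndrome, in which clonal marrow fails to make enough mature blood cells. The 3 mock arrays came from unsorted marrow of recipients of control cells carrying a mock transgene. The series also holds 2 arrays of unsorted marrow carrying an ABCG2 transgene, which are quoted only side by side. All 5 arrays share the transplantation and the extraction of RNA from marrow cells. The labels give neither strain, age, vector, promoter nor what the abbreviation Mt stands for, and they do not say whether both fractions came from 1 mouse. The sources used here do not say what GFP marks, so whether GFP-negative cells carried the transgene is not known. Both fractions are called EZH2-Mt after the transplant. Sorting was done on the EZH2-Mt side alone, so an effect of the transgene, of the disease state and of the sort cannot be told apart, and every difference given here is one between sorted EZH2-Mt fractions and unsorted mock marrow.

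EZH2 is the enzyme of Polycomb repressive complex 2, which methylates lysine 27 of histone H3 and thereby keeps developmental genes silent. In blood formation the complex acts in stem cells, in lymphocyte development and in red cell maturation, and loss of EZH2 function is a known lesion of myeloid disease. Marrow is a mixture of erythroid, granulocytic, monocytic, lymphoid and megakaryocytic cells. In such bulk samples, fewer cells of a type and less RNA per cell cannot be told apart.

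The deposited value is a log2 signal from which the median of the 7 arrays was taken away for each probe set, so a value says how an array lay against the others and not how abundant a transcript was. The base of the logarithm is not stated and was read as 2. Only probe sets called Present or Marginal on 100% of the samples were kept, per the file headers, so a gene not detected on some array has no value here. Probe sets with several gene symbols or none gave no gene-level value either, globin probe sets that were detected on all arrays among them. For either reason, 22 of the 42 erythroid and 45 of the 54 T and NK cell markers listed had no gene-level value. The SD over 16255 probe sets was 0.41 for GFP-negative cells, 0.54 for GFP-positive cells and 0.33 to 0.42 on the mock arrays. The fractions differed from each other by 2-fold or more in 834 probe sets, the GFP-negative array differed from single mock arrays in 1218 to 1357, the GFP-positive array in 2041 to 2366, and mock arrays among themselves in 109 to 410. Both kinds of control transcript that the assay adds were high on the EZH2-Mt arrays. The 24 poly-A control probe sets had medians of 1.79 (GFP-negative) and 3.50 (GFP-positive), against 0.00 on each mock array, and all 24 lay above every mock array on both. The 16 hybridization controls had medians of 0.93 and 2.20 against -0.01 to 0.01. The ratio of 3′ to 5′ signal is a sign of RNA quality, but centring of each probe set leaves only its departure from the other arrays. Centred 3′ minus centred 5′ signal was 0.14 and 0.31 (log2) for beta-actin against -0.05 to 0.04 in mock. For Gapdh it was 0.09 and 0.35 against -0.08 to 0.10. The ratio itself cannot be read from these values. The part of these values in the results below was not tested.

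**Figure D1:**
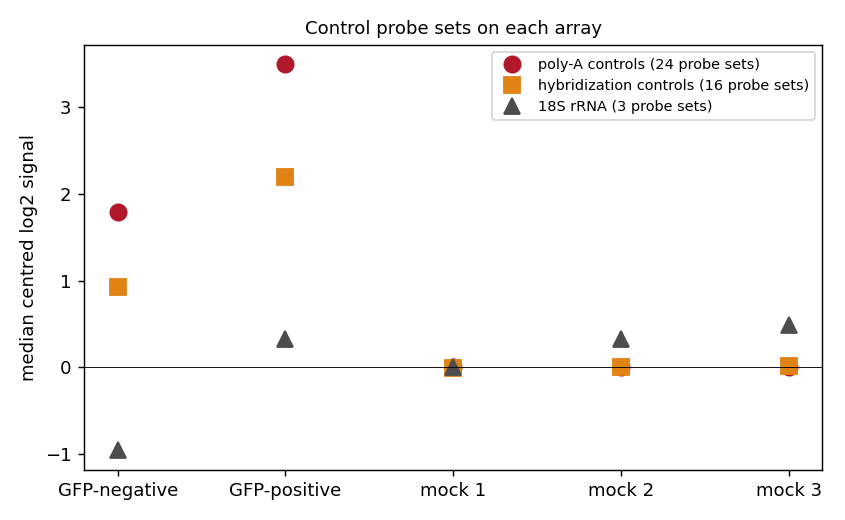
Median centred log2 signal (vertical axis) of the manufacturer's control probe sets on the 5 arrays (horizontal axis), as 1 point per class and array with no error bar. The poly-A controls stand at 1.79 and 3.50 on the EZH2-Mt arrays and at 0.00 on the mock arrays, and the hybridization controls at 0.93 and 2.20, while 18S rRNA stands at -0.96 and 0.32 beside 0.00 to 0.48 in mock.

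Many probe sets separated the EZH2-Mt fractions from mock marrow. Both fractions lay above all 3 mock arrays in 4591 of 16255 probe sets (28.2%) and below all of them in 3365 (20.7%). A difference of group means of 2-fold or more in addition was met by 774 probe sets above (4.76%) and 381 below (2.34%). By limma (2 against 3 arrays, Benjamini-Hochberg adjusted p under 0.05), 941 probe sets rose (5.79%) and 589 fell (3.62%), in all 9.41%, while 30.2% had an unadjusted p under 0.05 and 48.9% did not overlap in either direction. Averaged to 8378 genes, 442 rose (5.28%) and 350 fell (4.18%), in all 9.45%, with both fractions above all mock arrays in 27.4% of genes and below in 20.6%, together 48%. An unadjusted p under 0.05 was met by 29.9% of genes, both above by 2-fold by 2.34% and both below by 2-fold by 1.93%. The median difference over all genes was 0.05. These shares are the background for the counts that follow. With quantile normalization 281 genes rose and 420 fell, so the rises made up 40.1% of the calls in place of 55.8%. The number of calls moved with the array left out: 44 genes rose and 68 fell without mock 3, 82 and 78 without mock 2, 130 and 146 without mock 1, and 107 and 129 without the GFP-positive array. Without the GFP-negative array 549 rose and 428 fell. The labels do not number the mice, so p-values measure only the spread between these arrays.

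The largest rise of a gene was that of Il7r, followed by the NK receptor gene Klrc1 and the red cell gene Tspan33, and the largest falls were those of the immunoglobulin segment Igkv9-120, the interferon-induced gene Rtp4 and the heat shock gene Hspa1b. Il7r, whose product lets lymphoid progenitors respond to interleukin-7, was at 1.43 in GFP-negative and 0.00 in GFP-positive cells, and at -4.84, -3.74 and -4.26 on mock arrays 1 to 3. The groups did not overlap, and the difference of 5.00 ± 0.45 (SE) was a 31.9-fold rise in limma (adjusted p = 0.00359). The ABCG2 arrays, at 1.35 and 1.95, lay beside the EZH2-Mt arrays, so mock marrow alone was low. Klrc1, which encodes the NKG2A receptor of NK cells, was at 5.18 in GFP-negative cells and 2.14 in GFP-positive cells, against -1.82, 0.00 and -0.36 in mock. Its rise was 4.39 ± 0.87 (adjusted p = 0.0291 in limma). Its partner gene Klrd1, for CD94, stood at 2.58 and 0.00 against -3.48, -1.13 and -2.12, a rise of 3.53 ± 0.84 (adjusted p = 0.0447). For both NK receptor genes the GFP-negative array was the higher. Klrc1 no longer passed without any one of the mock arrays (adjusted p up to 0.0826 in limma), and Klrd1 without any one of them or without the GFP-negative array (up to 0.114).

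Prxl2a, which encodes a peroxiredoxin-like protein, had the smallest adjusted p among these rises. It was at 1.37 and 1.42 in the fractions and at -2.14, -1.96 and -2.11 in mock, a rise of 3.46 ± 0.14 (adjusted p = 0.000238 in limma), with the ABCG2 arrays at 0.68 and 0.00. Both fractions lay close together, and so did the mock arrays. Among the other large rises were Cdr2 (2.81 ± 0.29), Tent5c (2.71 ± 0.37), which encodes a poly(A) polymerase, Nlrc3 (2.69 ± 0.44), an inhibitor of innate signalling in T cells, and Tmem86b (2.47 ± 0.16). H3f3b, a gene of the replacement variant of histone H3, stood at 2.67 and 1.92 against -0.33 to -0.07 in mock, a rise of 2.46 ± 0.23 (adjusted p = 0.00436 in limma). The second gene of this variant, H3f3a, rose by 0.95 ± 0.15. Probe sets of such near-identical genes may take signal from each other's transcripts. Nlrc3 was lost as a call without mock 3 or without either fraction (adjusted p up to 0.0561), and Tent5c without mock 3 (0.0555).

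**Figure D2:**
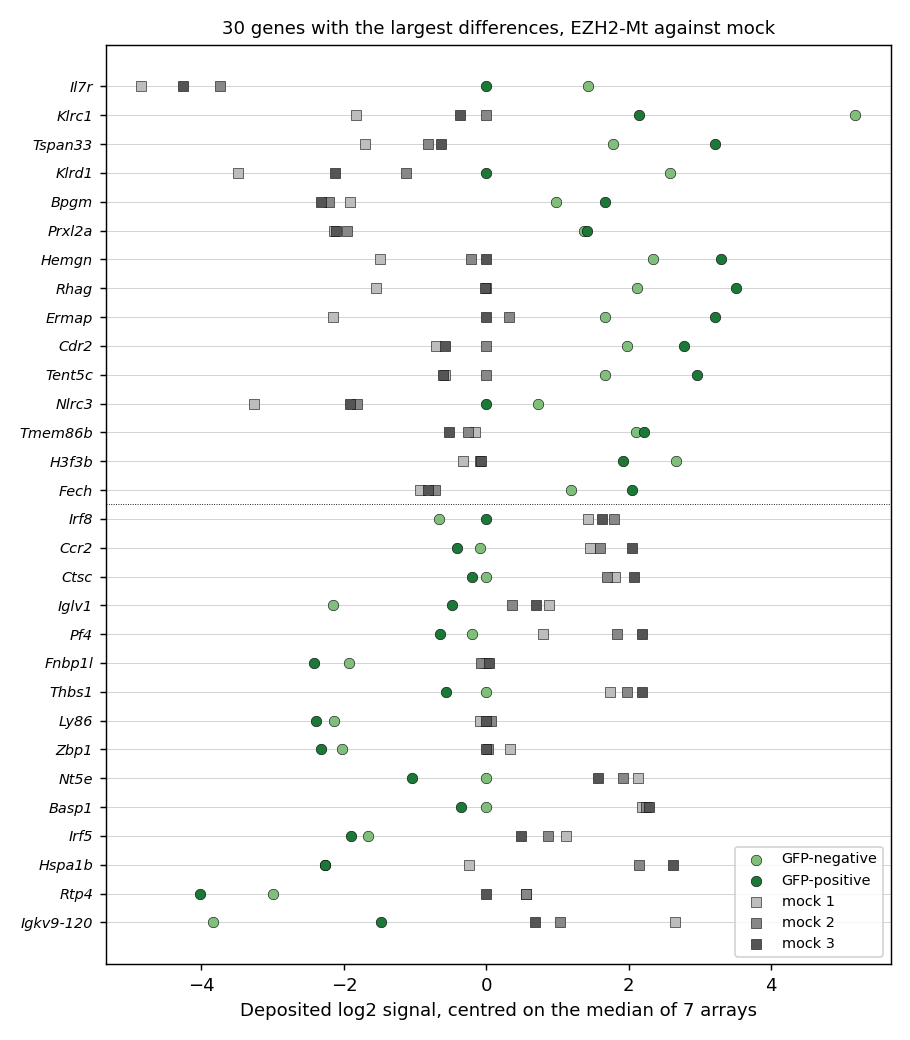
Centred log2 signal (horizontal axis) of the 15 genes with the largest rises (above the dotted line) and the 15 with the largest falls (below it) among those called by limma, with 1 point per array: circles for the EZH2-Mt fractions and squares for mock 1 to 3. In every row both circles lie on one side of all 3 squares, as the choice of genes required, and for Il7r the mock arrays stand at -4.84 to -3.74.

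Red cell genes were higher in EZH2-Mt marrow. Of 20 erythroid genes measured, 10 rose (50%, against 5.28% of all genes), 0 fell, and 16 lay above all mock arrays on both fractions (background 27.4%). The median difference was 1.81. The list's median was 0.81 in GFP-negative and 1.93 in GFP-positive cells, against -0.83, -0.26 and 0.00 on mock 1 to 3. All 20 members were higher in the GFP-positive than in the GFP-negative fraction, by a median of 1.12, with 1 array each and no test. The median difference was 1.05 with the GFP-negative array alone, 2.58 with the GFP-positive array alone and 1.33 without mock 1. The count of rises was 4 to 6 without 1 mock array, 4 without the GFP-positive array and 15 without the GFP-negative array.

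Bpgm makes the bisphosphoglycerate that tunes oxygen release from haemoglobin. It was at 0.98 in GFP-negative and 1.67 in GFP-positive cells and at -1.91, -2.21 and -2.33 in mock, and its 3 probe sets gave differences of 3.30 to 3.57. The groups lay far apart, and the rise was 3.47 ± 0.24 (adjusted p = 0.00171 in limma), with the ABCG2 arrays in between at 0.48 and 0.00. Tspan33, a tetraspanin needed for red cell formation, stood at 1.78 and 3.21 against -1.70, -0.82 and -0.64 (rise 3.55 ± 0.46). Hemgn, a nuclear factor of erythroid and stem cells, stood at 2.34 and 3.30 against -1.49, -0.22 and 0.00 (3.39 ± 0.47). Rhag, the Rh-associated glycoprotein of the red cell membrane, stood at 2.12 and 3.51 against -1.55, 0.00 and -0.01 (3.34 ± 0.55). Ermap, a red cell adhesion protein, stood at 1.67 and 3.22 against -2.15, 0.32 and 0.00 (3.05 ± 0.75). In each of these genes the GFP-positive array was the highest of the 5, and in all but Bpgm mock 1 was the lowest. The Ermap call rested on little (adjusted p = 0.0489 in limma) and was lost in 7 alternatives, without any single mock array among them (up to 0.208). Hemgn lost it without the GFP-positive array (0.0559) and Rhag without that array or mock 3 (up to 0.0808).

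The ankyrin gene Ank1 of the red cell skeleton rose by 2.18 ± 0.40, and Icam4, a red cell adhesion receptor, by 1.36 ± 0.27. The carbonic anhydrase gene Car2 (2.17 ± 0.55, adjusted p = 0.05 in limma), the water channel gene Aqp1 (1.88 ± 0.57, 0.0798) and Klf1 (1.73 ± 0.57, 0.0957), the master regulator of adult globin genes, had both fractions above all mock arrays but did not pass. Klf1 stood at 0.86 and 2.51 against -0.89, 0.00 and 0.75, so the mock arrays lay far apart. Tal1, a stem cell and erythroid factor, overlapped with mock (adjusted p = 0.135). Car1 went the other way in its mean (-0.49 ± 0.59) and overlapped as well, with mock 1 at -0.54 and the other mock arrays at 1.46 and 1.48. Outside the gene-level values, a probe set annotated to both Hba-a1 and Hba-a2 stood at 0.74 and 1.68 against -6.93, -4.97 and -3.84 in mock (6.45 ± 0.81). One annotated to 4 beta globin genes stood at 0.83 and 1.78 against -6.27, -4.83 and -3.83 (6.28 ± 0.66). The ABCG2 arrays stood at 0.00 and 0.06 for the Hba probe set and at 0.00 and 0.03 for the beta globin one. They lay nearer to the EZH2-Mt arrays, so mock marrow alone was low. These 2 probe sets had the largest differences among those whose groups did not overlap, and they belong to no single gene. The probe set assigned to Hba-a2 alone differed by 1.17 ± 0.45 and did not pass (adjusted p = 0.135).

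Heme is built from glycine and succinyl-CoA in a chain of enzymatic steps that begin and end in the mitochondrion. Of 34 genes of heme synthesis and iron handling, 11 rose (32.4%) and 0 fell, with a median difference of 0.64. List medians were 0.03 and 0.54 in the fractions and -0.11 to -0.02 in mock. Fech, the enzyme that inserts iron, stood at 1.19 and 2.05 against -0.93, -0.72 and -0.81, and rose by 2.44 ± 0.25 (adjusted p = 0.00475 in limma). The mock arrays of Fech lay close together, under both fractions. Slc25a37, the mitoferrin of erythroid cells, rose by 2.23 ± 0.32, and Abcb6, a porphyrin transporter, by 1.26 ± 0.21. Cpox (0.85), Urod (0.93), Ppox (0.77) and Alas1 (0.71), further enzymes of the path, also rose. Alad (1.27 ± 0.34, adjusted p = 0.0581) and Blvrb (1.05 ± 0.31, 0.0756) did not pass. Fech, Cpox, Slc25a37 and Tfrc also stand in the erythroid list. The count was 6 with quantile normalization and 1 to 3 without 1 mock array, and 2 without the GFP-positive and 15 without the GFP-negative array.

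Few lymphocyte markers were measurable, and those of T and NK cells were high in GFP-negative cells. Of 9 T and NK genes 3 rose (33.3%, against 5.28% of all genes), Klrc1, Klrd1 and Nlrc3, and 0 fell. The median difference was 1.69. The list's median was 1.42 in GFP-negative and 0.00 in GFP-positive cells, and -1.82, 0.00 and -0.25 in mock. The GFP-negative array was the higher in 8 of 9 members. Ccl5 (1.63 and 0.00 against -4.63, 0.47 and -0.02) and Cd3d, a chain of the T cell receptor complex (1.42 and 0.06 against -1.43, 0.00 and 0.21), overlapped with mock and did not pass. Of the 5 Gimap genes, which encode GTPases of lymphocyte survival, 0 passed in limma and 1 had an unadjusted p under 0.05 (background 29.9%). Both fractions lay above all mock arrays in 2 of the 5 (background 27.4%). Gimap4 stood at 1.48 and 0.00 against -4.45, -0.04 and -0.35. Mock 1 was the lowest of the 5 arrays in all members just named. Without mock 1 the median difference was 0.72 for T and NK genes and 0.66 for Gimap genes. The number of T and NK genes called was 0 without mock 3, and 1 without either other mock array or without the GFP-negative array.

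Among 20 B-lineage genes 3 rose (15%, against 5.28% of all genes) and 0 fell (median difference 0.38). The rises were Il7r, Cd22 (2.25 ± 0.44), an inhibitory receptor of B cells, and Foxo1 (0.96 ± 0.18), a factor of early B development. The Foxo1 call was lost without mock 2, without mock 3 and with all 7 arrays in the fit, among others. Cd22 stood at 0.00 and 0.82 against -2.25, -0.95 and -2.32, and was lost in 4 alternatives (adjusted p up to 0.120 in limma). The B-cell antigen gene Ms4a1 stood at 0.00 and 1.24 against 0.03, -1.38 and -1.59 and did not pass. Without mock 3, 1 B-lineage gene rose and 0 fell, and without the GFP-positive array 1 rose and 1 fell. A pair of immunoglobulin light-chain segments was among the largest falls. Igkv9-120 stood at -3.84 and -1.48 against 2.65, 1.03 and 0.69 (-4.12 ± 0.76), and Iglv1 at -2.16 and -0.48 against 0.89, 0.36 and 0.70 (-1.97 ± 0.44). Such probe sets can read several related segments. The heavy-chain gene Ighm, with 7 probe sets, differed by 0.41 ± 0.80. Of 15 plasma cell and immunoglobulin genes, a list without Igkv9-120, 2 fell (13.3%, against 4.18% of all genes) and 0 rose. The falls were Iglv1 and Txndc5 (-0.92 ± 0.17), which encodes a folding enzyme of the endoplasmic reticulum. Txndc5 did not pass without any one mock array (adjusted p up to 0.0816). Igkv9-120 was lost without mock 2, mock 3 or the GFP-negative array (adjusted p up to 0.0663) and Iglv1 without any one mock array (up to 0.110).

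**Figure D3:**
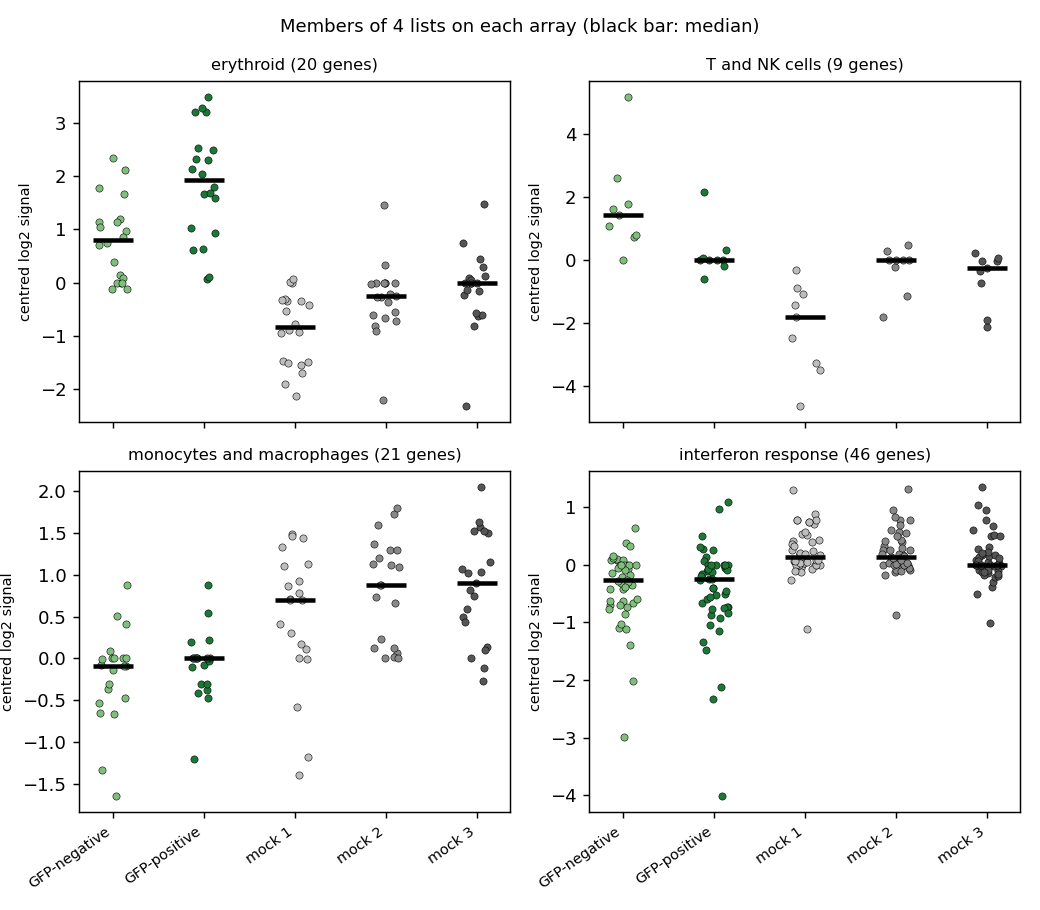
Centred log2 signal (vertical axis) of each measured member of 4 lists on the 5 arrays (horizontal axis), with 1 point per gene and the list's median as a black bar. The erythroid median is highest on the GFP-positive array (1.93), the T and NK median on the GFP-negative array (1.42), and the monocyte and macrophage medians of both fractions (-0.09 and 0.00) lie under those of mock (0.70 to 0.90).

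Monocyte and macrophage genes were lower in both EZH2-Mt fractions. Of 21 genes 12 fell (57.1%, against 4.18% of all genes), 0 rose, and 14 lay below all mock arrays on both fractions (background 20.6%). The median difference was -1.06, and list medians were -0.09 and 0.00 in the fractions against 0.70, 0.88 and 0.90 in mock. The fractions were alike here: the GFP-positive array was the higher in 14 of 21 members, by a median of 0.13. Without mock 3 the count of falls was 7.

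Ccr2, the chemokine receptor by which monocytes leave marrow, stood at -0.09 and -0.41 against 1.46, 1.60 and 2.05 in mock. Its 3 probe sets differed by -2.09 to -1.84, and the fall was 1.95 ± 0.21 (adjusted p = 0.00563 in limma), a 3.87-fold difference. Irf8, the transcription factor that directs progenitors to monocytes and dendritic cells, stood at -0.66 and 0.00 against 1.43, 1.80 and 1.63. It fell by 1.95 ± 0.22 (adjusted p = 0.00696). Csf1r, the receptor of macrophage colony-stimulating factor, stood at -0.53 and 0.00 against 1.12, 1.30 and 1.15 and fell by 1.45 ± 0.19. The mock arrays of these genes lay close together and far from the fractions. Falls were also found for the protease gene Lgmn (-1.53 ± 0.19), the pore protein gene Mpeg1 (-1.44 ± 0.15), Klf4 (-1.41 ± 0.28), Cd68 (-1.34 ± 0.18), Adgre1 (-1.17 ± 0.16), F13a1 (-1.08 ± 0.21), Cd14 (-1.06 ± 0.18) and Ccl6 (-0.89 ± 0.18). Genes of tissue macrophages spread more: Mrc1 stood at -1.33 and 0.19 against -1.17, 0.07 and -0.11, and C1qb at -0.37 and -0.08 against -1.39, 0.23 and 0.75, with neither passing. Ly86 (-2.26 ± 0.15), which pairs with an innate receptor, Basp1 (-2.41 ± 0.16) and Irf5 (-2.61 ± 0.21), a factor of inflammatory macrophages, were among the 15 largest falls outside this list.

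Interferon response genes were lower as well. Of 46 measured genes 18 fell (39.1%) and 0 rose, and 31 lay below all mock arrays on both fractions against 4 above. The median difference was -0.54, and list medians were -0.27 and -0.25 in the fractions against 0.13, 0.13 and 0.00 in mock. Rtp4, an interferon-induced chaperone of receptors, had the largest fall of the list. It stood at -2.99 and -4.02 against 0.56, 0.55 and 0.00 in mock, with the ABCG2 arrays at -0.52 and 0.55. The fall was 3.87 ± 0.32 (14.7-fold, adjusted p = 0.00296 in limma), with only the EZH2-Mt arrays low among the 7. Zbp1, a sensor of nucleic acids that starts cell death, stood at -2.02 and -2.32 against 0.33, 0.03 and 0.00 and fell by 2.29 ± 0.18 (adjusted p = 0.00256). Xaf1 stood at -1.38 and -2.12 against 0.36, 0.11 and -0.16 and fell by 1.86 ± 0.25.

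Irf9, the DNA-binding subunit of the complex that interferon alpha and beta activate, stood at -0.78 and -0.84 against 0.73, 0.60 and 0.49. It fell by 1.42 ± 0.15 (adjusted p = 0.0048 in limma). Irf7, the amplifier of interferon production, fell by 0.82 ± 0.14, Ifitm3 by 1.35 ± 0.16, Oas2 by 1.35 ± 0.25 and Mx1 by 0.93 ± 0.15. Ifi30, the lysosomal thiol reductase of antigen processing, stood at -0.28 and 0.00 against 1.29, 1.31 and 1.35 and fell by 1.45 ± 0.15. Not every member followed. Rsad2 (0.56, adjusted p = 0.261) and Iigp1 (0.76, 0.210) had means above mock and did not pass. Isg20 (0.68), Ddx58 (0.35), Ifit2 (0.27) and Pml (0.24) had both fractions above all mock arrays. The receptor subunit gene Ifngr2, outside this list, fell by 1.65 ± 0.18. Without any one mock array or the GFP-positive array the list had 8 to 10 falls.

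The guanylate-binding protein genes Gbp2, Gbp3 and Gbp7 of this list, which lie on chromosome 3 and encode interferon-induced GTPases, fell together. Gbp3 stood at -1.03 and -1.34 against 0.78, 0.69 and 0.60 (fall of 1.88 ± 0.16, adjusted p = 0.00296 in limma). Gbp2 stood at -1.11 and -1.47 against 0.39, 0.09 and -0.13 (1.41 ± 0.20, 0.0128), and Gbp7 at -0.63 and -0.87 against 0.09, -0.10 and -0.10 (0.71 ± 0.16, 0.0355). Gbp2 and Gbp7 are named here because of their promoters, after their values had been seen. As paralogs they may share signal. The 120 bases before each start are given 5′ to 3′ from RefSeq (GRCm38.p6, plus strand of the genome), with capitals marking a repeat of GAAA after any 2 bases on either strand, the core of the element that interferon regulatory factors bind. Ctss, a lysosomal protease gene of monocytes that fell by 1.47 ± 0.15, is set beside them.
Gbp2 (chr3:142620543-142620662): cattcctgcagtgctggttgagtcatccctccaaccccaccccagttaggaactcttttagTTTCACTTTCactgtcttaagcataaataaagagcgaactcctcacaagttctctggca
Gbp3 (chr3:142559924-142560043): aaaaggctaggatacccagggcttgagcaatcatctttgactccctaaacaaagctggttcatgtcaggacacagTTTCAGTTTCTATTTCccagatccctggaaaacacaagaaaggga
Gbp7 (chr3:142530216-142530335): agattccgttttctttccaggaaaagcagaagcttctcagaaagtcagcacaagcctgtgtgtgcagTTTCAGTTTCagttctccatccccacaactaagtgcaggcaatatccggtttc
Ctss (chr3:95526666-95526785): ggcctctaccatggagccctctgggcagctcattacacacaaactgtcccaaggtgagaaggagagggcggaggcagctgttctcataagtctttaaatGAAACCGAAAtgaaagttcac
Gbp3 holds 2 overlapping matches and the others 1 each. Of all 32851 RefSeq windows of 300 bases (250 before and 50 after a start), 3.44% hold this motif. The printed promoters were picked as examples of the motif and are shorter, so this share measures no enrichment in them. No share is given for the interferon genes that fell, since 11 of 18 matched a window. A match is a description of letters and not of binding.

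Lysosomal genes overlapped in part with the monocyte list. Of 45 genes 11 fell (24.4%) and 1 rose, with a median difference of -0.20 and list medians of 0.00 on each fraction against 0.17 to 0.20 in mock. The falls were led by cathepsins: Ctsc, which activates granule proteases, stood at 0.00 and -0.20 against 1.80, 1.70 and 2.07 and fell by 1.96 ± 0.17 (adjusted p = 0.00296 in limma). Ctss fell by 1.47 ± 0.15, Ctsh by 1.26 ± 0.14 and the saposin precursor gene Psap by 1.04 ± 0.15. Mcoln1, a lysosomal calcium channel gene, rose by 0.85. Without single arrays the count of falls was 4 to 7. Marker genes of monocytes moved with these genes, as 2 of the 11 falls, Cd68 and Ctss, stand in both lists, and their part was not tested.

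Platelet genes fell in part. Of 15 megakaryocyte and platelet genes 4 fell (26.7%, against 4.18% of all genes) and 0 rose. The median difference was -0.13. It was -0.045 without the GFP-positive and -0.43 without the GFP-negative array, and -0.23, -0.20 and -0.21 without mock 1, 2 and 3. Thbs1, for thrombospondin 1, stood at 0.00 and -0.57 against 1.74, 1.97 and 2.19 and fell by 2.25 ± 0.22 (adjusted p = 0.00438 in limma). Pf4, for platelet factor 4, stood at -0.20 and -0.65 against 0.80, 1.84 and 2.19 and fell by 2.03 ± 0.39. Selp fell by 1.07 ± 0.18 and Mmrn1 by 0.99 ± 0.22, both encoding proteins of platelet alpha granules. Itga2b (0.65 ± 0.19, adjusted p = 0.0741), the integrin chain that defines the lineage, and Zfpm1 (0.89 ± 0.26, 0.0707) had both fractions above all mock arrays and did not pass. Only Thbs1 of the 4 falls was called in every alternative. Without 1 mock array or the GFP-positive array the list had 1 or 2 falls. Pf4 (adjusted p up to 0.112), Selp (0.0721) and Mmrn1 (0.131) were lost without some mock arrays or without the GFP-positive array.

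Few neutrophil genes were called by limma, although many lay above all mock arrays on both fractions. Of 8 primary granule genes 1 rose, Serpinb1a (0.93 ± 0.16), while 7 lay above all mock arrays on both fractions (background 27.4%). The median difference was 0.67. Mpo, the peroxidase of these granules, stood at 0.16 and 1.19 against -0.32, 0.03 and 0.00 (0.77 ± 0.30, adjusted p = 0.133). Ms4a3 stood at 0.39 and 1.30 against -0.20, 0.00 and 0.18 (0.86 ± 0.27, 0.0879). The median difference was 0.29 with the GFP-negative array alone and 0.98 with the GFP-positive array alone, where 6 genes were called. Of 30 genes of maturing and mature neutrophils, 16 lay above all mock arrays on both fractions and 3 below (background 27.4% and 20.6%). An unadjusted p under 0.05 in limma was met by 16 (background 29.9%). Called among these 30 genes were Stfa3, a stefin, which rose by 1.80 ± 0.24, and the lectin receptor gene Clec4d, which fell by 0.82 ± 0.20. The median over the 30 genes was 0.29. Without the GFP-negative array 11 of them rose and 2 fell. S100a8 (0.91 ± 0.26, adjusted p = 0.0709) and S100a9 (1.04 ± 0.30, 0.0707), the calgranulin genes, had both fractions above mock and did not pass. Serpinb1a was lost in 5 alternatives (adjusted p up to 0.0786) and Clec4d in 6 (up to 0.252).

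**Figure D4:**
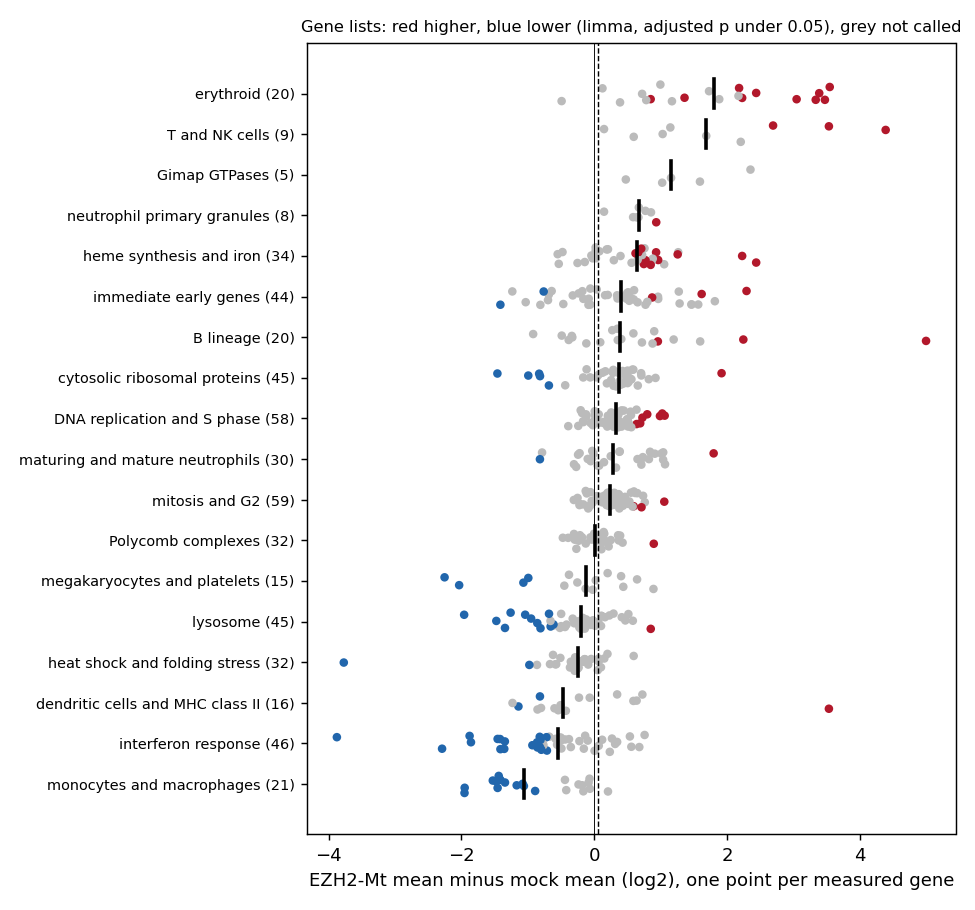
EZH2-Mt mean minus mock mean in log2 (horizontal axis) of each measured member of 18 lists (vertical axis, number measured in brackets), coloured by limma's call, with the list's median as a black bar and the median of all 8378 genes (0.05) as a dashed line. The erythroid list has the highest median (1.81) and monocytes and macrophages the lowest (-1.06), while the Polycomb list (0.01) lies beside the dashed line.

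Genes of DNA replication were a little higher. Of 58 genes 7 rose (12.1%), 0 fell, and 34 lay above all mock arrays on both fractions, with a median difference of 0.32. Rrm2, the ribonucleotide reductase subunit of S phase, stood at 0.94 and 1.08 against -0.21, 0.00 and 0.04 and rose by 1.06 ± 0.15 (adjusted p = 0.0128 in limma). E2f2, an E2F factor, rose by 1.02 ± 0.18 and Ccne1, for cyclin E1, by 0.99 ± 0.15. Of 59 mitosis genes 3 rose, a share of 5.08% beside the background of 5.28%, and 0 fell (median 0.24). Incenp, a subunit of the chromosomal passenger complex, rose by 1.06 ± 0.18, and Mki67 (0.76 ± 0.25, adjusted p = 0.0921) did not pass. The replication count was 0 without mock 2, without mock 3 and without the GFP-positive array, 2 without mock 1, 14 without the GFP-negative array, and 4 with quantile normalization. The mitosis count was 9 without the GFP-negative array, 0 without any other single array and 1 with quantile normalization.

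The Polycomb genes themselves stayed near mock. Ezh2 stood at -0.14 and -0.16 in the fractions and at -0.22, 0.14 and 0.00 in mock, so the groups overlapped, and the difference was -0.13 ± 0.16 (adjusted p = 0.629 in limma). The sources used here do not say whether its 1 probe set reads the transgene's transcript, so this value does not check the label. The partner subunit genes differed by -0.18 ± 0.16 (Eed) and 0.25 ± 0.15 (Suz12), and the paralog Ezh1 by 0.11 ± 0.16, none passing. Of 32 Polycomb genes 1 rose, Phf19 (0.45 and 1.0 against -0.06, 0.00 and -0.45, 0.90 ± 0.22), which encodes a chromatin-binding accessory subunit. Its call was marginal (adjusted p = 0.0489) and was lost in 8 alternatives (up to 0.175), with quantile normalization among them. Mtf2, a related accessory subunit, differed by 0.43 ± 0.14 (adjusted p = 0.0876) and the PRC1 ubiquitin ligase gene Rnf2 by -0.47 ± 0.20. Developmental regulators that Polycomb silences were measured in 1 of 28 listed genes, Lin28a (-0.46 ± 0.26), and Hox genes and partners in 3 of 30, with 0 of these 4 genes called by limma and 1 (a Hox list member) under an unadjusted p of 0.05. Abcg2, a drug efflux pump of stem and erythroid cells, stood at 0.84 and 1.35 against 0.02, -0.17 and 0.00 and rose by 1.15 ± 0.19 (adjusted p = 0.0192). The arrays labelled ABCG2 had the lowest Abcg2 values of the 7, at -0.92 and -0.91, and the sources used here do not say whether its 1 probe set reads that transgene. Without mock 2, mock 3 or the GFP-positive array Abcg2 did not pass (up to 0.0721).

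Single stress and inflammatory genes moved in both directions. Of all genes 5.28% rose and 4.18% fell. Hspa1b, an inducible HSP70 gene with a near-identical neighbour, stood at -2.26 on both fractions against -0.24, 2.14 and 2.63 and fell by 3.77 ± 0.74 (adjusted p = 0.0291 in limma). Mock 1 lay far from the other mock arrays, and it did not pass without mock 2, mock 3 or either fraction (up to 0.108). Of 32 heat shock and folding genes only Hspe1 (-0.98 ± 0.19) fell beside it (6.25% together), and 0 rose. The Hspe1 call was lost without mock 2 or mock 3, among others. Of 44 immediate early genes 3 rose (6.82%) and 2 fell (4.55%), both near the background. Their median was 0.40, and it was 0.052 without mock 1 and 0.18 without the GFP-negative array. The rises were in Ier3 (2.29 ± 0.47), Zfp36 (1.62 ± 0.29), which speeds the decay of cytokine mRNA, and Tsc22d3 (0.87 ± 0.20). These calls were lost in 5, 3 and 6 alternatives (limma adjusted p up to 0.0780 for Ier3, 0.0729 for Zfp36 and 0.128 for Tsc22d3), for Ier3 with quantile normalization among them. The falls were in Klf4, named above, and Rgs2 (-0.76). The Klf4 call was lost without mock 2 or mock 3, among others. Ier3 stood at 2.89 and 1.34 against -0.78, 0.00 and 0.23. Of 30 NF-kB and cytokine genes 3 rose (10%) and 4 fell (13.3%). Tnfaip3, the NF-kB inhibitor A20, stood at 1.97 and 1.56 against -0.78, -0.13 and 0.14 and rose by 2.02 ± 0.28 (adjusted p = 0.0112). Il1rn, the interleukin-1 receptor antagonist gene, stood at -0.07 and 0.00 against 1.70, 1.72 and 1.99 and fell by 1.84 ± 0.16. Of 45 cytosolic ribosomal protein genes 1 rose (2.22%), Rpl27a (1.92 ± 0.40), and 5 fell (11.1%), Rpl39 the most (-1.46 ± 0.23). The Rpl27a call was lost without any one mock array. Yet 30 of the 45 lay above all mock arrays on both fractions (background 27.4%), and the median was 0.38. The count of falls was 0 without mock 2 or mock 3, and without the GFP-negative array 11 rose and 3 fell.

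The differences from mock were shared by the fractions to a varying degree. Among the 442 genes that rose, the GFP-positive array was the higher in 279 (63.1%). Their median distance from mock was 0.93 for GFP-positive and 0.82 for GFP-negative cells. Among the 350 genes that fell, the GFP-positive array was the lower in 210. Over all 8378 genes, in either direction, the GFP-positive array was the farther from the mock mean in 5060. The called genes thus lay near the background in this respect. Beyond the lists, 1400 genes had 3 or more probe sets, and all probe sets of the gene lay above mock on both fractions for 78 and below for 66. Zdhhc14, a palmitoyltransferase gene, had 3 probe sets with differences of 1.64 to 1.96 (mean 1.82 ± 0.19, adjusted p = 0.0053 in limma). Tfdp2, the dimer partner of E2F factors, had 3 with 1.14 to 2.07 (1.55 ± 0.22). Among the falls, the 4 probe sets of Zeb2, a factor of monocyte and dendritic cell fate, differed by -1.82 to -1.01 (mean -1.39 ± 0.16, adjusted p = 0.0059), and the 4 of Tgm2, a transglutaminase gene, by -1.93 to -1.10.

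**Figure D5:**
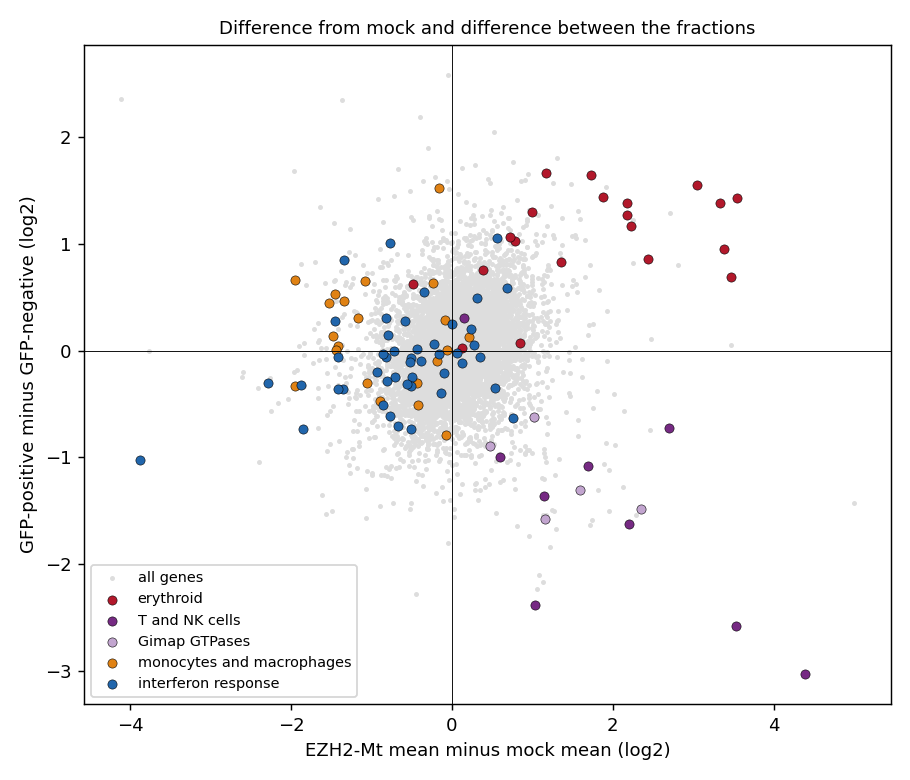
EZH2-Mt mean minus mock mean (horizontal axis, log2) against GFP-positive minus GFP-negative (vertical axis, log2) for 8378 genes, with the members of 5 lists in colour and no error bars. The 20 erythroid genes lie above 0 on the vertical axis and all 5 Gimap genes below it, and 8 of 9 T and NK genes lie below it as well.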

How the data were processed

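Total RNA of sorted EZH2-Mt and unsorted mock marrow was labelled and read on Mouse430_2 arrays. Per the file headers, the deposited log2 values (base assumed) are normalized signals of probe sets that passed a raw-signal range and were called Present or Marginal on 100% of the samples. The submitters' processing notes list MAS5. Other steps, scaling included, are not given in the sources used here. The values of each probe set had a median of 0 over the 7 arrays. The series value table and the array files were identical (largest difference 0), and no further scaling was applied.

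From 16309 probe sets, 54 controls were set apart. Of the remaining 16255, 14229 had 1 gene symbol, 483 several and 1543 none, and genes (8378, of which 3624 had over 1 probe set) are means over probe sets with 1 symbol. Gene IDs of 14203 probe sets matched RefSeq GRCm38.p6. The 2 EZH2-Mt arrays were tested against the 3 mock arrays with limma 3.58.1 in R 4.3.3 (lmFit, eBayes, two-sided, Benjamini-Hochberg over the whole table). Values after ± are limma's standard errors. The number of arrays limits the precision. On simulated data for this comparison (16255 probe sets), 27% of changes of 1 log2 and 95% of changes of 3 log2 were recovered, with 3 false calls. Only 100 probe sets were changed by each size, errors were independent and normal, and no array was shifted as a whole. The count of false calls therefore holds for that setting and not for these arrays. The members and the 44 gene lists were chosen with earlier results of these data known, and genes shared between lists count in each. Named genes are the 15 largest called rises and falls, in each list up to 4 called (or non-overlapping) and 2 other genes with the largest differences, Ezh2, Abcg2 and the Polycomb genes, those with the widest gaps between fractions, and those with 3 or more agreeing probe sets; further members are given as examples of a list, chosen after their values were seen. Alternatives covered scaling, arrays and weights in the fit, the spread, probe set types, fold limits, the log base and leaving out each array. Planned descriptions of promoter CpG content and motifs over gene sets are void, because only 77.6% and 75.3% of the genes above and below mock by 2-fold matched a promoter window.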

Additional observations from a re-analysis of the deposited data

Results flagged for a closer look

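Signal appeared in probe sets outside the comparison. The poly-A controls had a median of 1.79 on the GFP-negative array and 3.50 on the GFP-positive array, above the control arrays (0.00 on each mock array). The hybridization controls had medians of 0.93 and 2.20, above -0.01 to 0.01 on the mock arrays.

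In 747 of 8378 genes the fractions lay on opposite sides of all mock arrays, and in 4 of them the fractions were farthest apart. GFP-positive minus GFP-negative was 2.19 for Vill, 2.05 for Cacna1d and 1.90 for Hyou1, and -1.80 for Cfap298. Vill stood at -1.25 in GFP-negative and 0.94 in GFP-positive cells against 0.00, 0.36 and 0.35 in mock, and Cfap298 at 0.72 and -1.08 against -0.34, 0.00 and -0.04. With 1 array per fraction these differences were not tested.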

How the results depend on the processing

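With quantile normalization 281 genes rose, 49.2% of called probe sets were rises in place of 61.5%, and list medians were 0.45 for heme and iron, 0.48 for primary granules, 0.15 for mature neutrophils, -1.22 for monocytes, 0.30 for the B lineage, 0.16 for mitosis, 0.23 for replication and -0.27 for lysosome. Spread taken from mock alone gave 1771 and 1147 probe sets and 768 and 552 genes higher and lower. Array weights gave 564 and 348 probe sets, 234 higher genes and a Polycomb median of 0.054. Plain _at probe sets gave 392 lower. The 2-fold counts above and below mock were 2157 and 1343 at 1.5-fold, 79 and 20 at 4-fold, and 1652 and 988 as natural logs. Leaving out 1 array gave 91 to 1658 probe sets higher, 56 to 1071 lower, 44 to 549 genes higher, 68 to 428 lower, 666 to 1289 probe sets above and 374 to 680 below by 2-fold. List medians then ran from 1.05 to 2.58 (erythroid), 0.44 to 0.71 (heme and iron), 0.29 to 0.98 (primary granules), 0.24 to 0.32 (mature neutrophils), -1.10 to -0.92 (monocytes), 0.19 to 0.53 (B lineage), -0.43 to -0.045 (megakaryocytes), -0.69 to -0.0082 (dendritic cells and MHC class II), 0.14 to 0.40 (mitosis), 0.22 to 0.35 (replication), -0.64 to -0.47 (interferon), -0.030 to 0.10 (Polycomb), 0.052 to 0.57 (immediate early), -0.32 to -0.17 (heat shock), 0.72 to 2.23 (T and NK), 0.66 to 1.95 (Gimap), 0.20 to 0.55 (cytosolic ribosomal proteins) and -0.31 to -0.16 (lysosome). The cause was not tested. Stat3 (0.75 ± 0.15) turned to -0.23 with plain _at probe sets (adjusted p = 0.354 in limma). Of 124 named genes called, 37 were called under every alternative, among the 30 largest 19, and all 30 under both scalings. No paired analysis was possible because the labels link no EZH2-Mt array to a mock array. The values carry no signal over background, so dim genes cannot be set apart.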

Other observations

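Single genes of survival, redox defence and other lineages that the lists above do not cover also differed. Over all genes 5.28% rose and 4.18% fell. The survival gene Bcl2 stood at 0.62 and -0.03 in the fractions against -1.75, -1.12 and -0.96 in mock. It rose by 1.57 ± 0.29 (adjusted p = 0.025 in limma). This was the 1 call among 33 apoptosis genes (3.03%), a share under that of rises in all genes. Perp, a p53 target of cell adhesion, rose by 2.02 ± 0.40, 1 of 2 rises among 20 p53 targets (10%). Of 38 oxidative stress genes 3 rose and 3 fell (7.89% each). Prdx2, the peroxiredoxin of red cells, rose by 1.53 ± 0.29, and Prdx4, the peroxiredoxin of the endoplasmic reticulum, fell by 1.36 ± 0.22. Mcpt8, a protease gene of basophils, stood at 1.52 and 0.84 against -0.15, 0.00 and 0.12 and rose by 1.19 ± 0.22. Cd48, a surface receptor of most marrow leukocytes, fell by 1.41 ± 0.20. Nf1, a Ras inhibitor mutated in some myeloid disease, rose by 1.21 ± 0.23. It was 1 of 2 rises among 37 genes mutated in MDS (5.41%), a share near the 5.28% of all genes. None of that list fell, against 4.18% of all genes. Each of these calls was lost in some alternatives: Mcpt8, Perp and Hif1a (named below) in 5 each, Nf1 in 4, Bcl2 and Prdx2 in 3 each, and Prdx4 and Cd48 in 2 each, with these highest limma adjusted p values (Cd48 0.0614, Prdx4 0.0662, Bcl2 0.0630, Mcpt8 0.0796, Nf1 0.0873, Prdx2 0.0874, Perp 0.0881, Hif1a 0.101). For Mcpt8 quantile normalization and the fit with all 7 arrays were among them.

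By limma, of 72 oxidative phosphorylation genes 0 were called and 11 had an unadjusted p under 0.05, of 76 mitochondrial ribosomal protein genes 1 rose and 3 fell, of 63 spliceosome genes 1 rose and 2 fell, of 55 nucleolar genes 3 fell, and of 41 proteasome genes 1 rose and 3 fell. Of 28 glycolysis and hypoxia genes 1 fell, Hif1a (-0.88 ± 0.18), and of 29 cholesterol genes 1 rose and 1 fell. Among 13 DNA methylation genes 0 were called by limma and 4 had an unadjusted p under 0.05, and among 37 histone methylation genes 1 fell. Some small lists had shares of calls above the background of 5.28% rises and 4.18% falls. Of 10 histone genes 3 rose (30%), H3f3b, H3f3a and H2bc22 (1.09 ± 0.24), and of 17 ABC transporter genes 3 rose (17.6%), Abcb6, Abcg2 and Abca1 (0.65 ± 0.15). Of 24 stem and progenitor genes 1 rose, Satb1 (0.75 ± 0.15), and 3 fell (12.5%), Cd48, Ly6e (-0.86 ± 0.14) and Txnip (-1.04 ± 0.26). Of 16 genes of dendritic cells and antigen presentation 1 rose, Klrd1, and 2 fell (12.5%), Irf7 and H2-DMa (-1.14 ± 0.21). Of the calls just named, H3f3b alone was kept in every alternative. Of 39 Jak, Stat and Socs genes 2 rose and 3 fell, and of 24 integrin and adhesion genes 1 rose and 2 fell. One of 19 TGF-beta genes fell and 0 of 5 stroma genes were called by limma, with 1 at an unadjusted p under 0.05, while of 38 MAP kinase genes 1 rose and 2 fell.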
